A study of Mus musculus with 6 samples.

Results

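Transcripts of 10 genes of the BCL2 family were examined in mouse 2-cell embryos, 4 of them anti-apoptotic (Bcl2l10, Mcl1, Bcl2l1 and Bcl2) and 6 pro-apoptotic (Bax, Bak1, Bid, Bad, Bcl2l11 and Bbc3). The genes were chosen by symbol for their known roles, and each matched 1 of the 53023 genes in the expression table. RNA-seq was performed on ICR embryos at 28 hours post insemination (hpi) in 3 groups of 2 libraries, each library made from a pool of 5 embryos freed of the zona pellucida. The PIASy-WT group received mRNA for HA-tagged PIASy, a ligase for the protein modifier SUMO, and the PIASy-Mut group received the same mRNA with the C335F change that removes the ligase activity. Both mRNAs were injected into the cytoplasm at 100 ng/µl from 1.5 to 3 hpi, and zygotes with fluorescence at 9 hpi were kept. The third group, non-injection, received no mRNA and no injection, so handling and injected RNA cannot be told apart from the protein in comparisons with it. The 3 comparisons ask whether the excess PIASy protein, and its ligase activity, went with a different set of transcripts at the time when the zygotic genome becomes active.

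BCL2 family proteins decide whether the outer membrane of the mitochondrion stays intact. The effectors BAX and BAK1 form pores that release cytochrome c, the anti-apoptotic members hold them in check, and the BH3-only members (BID, BAD, BIM from Bcl2l11 and PUMA from Bbc3) bind the anti-apoptotic members or the effectors. Oocytes store large amounts of Bcl2l10 mRNA, and MCL1 is a short-lived protein that the mouse embryo needs around implantation.

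The BH3 motif is the short helix through which these proteins bind one another, and its coding stretch is shown because it is the feature by which most of the members are grouped as a family. A search of the coding sequences (GENCODE M21, GRCm38) for a leucine, any 3 residues, a glycine and an aspartate found 1 stretch at the BH3 position in 7 of the 10 members. With serine or alanine in place of the glycine, it was also found in Bad and Bbc3. In the lines that follow, 48 bases of each are written 5′ to 3′ on the coding strand, and capitals mark the 6 codons of the motif.
Mcl1: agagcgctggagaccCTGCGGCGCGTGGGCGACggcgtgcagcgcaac
Bcl2l1: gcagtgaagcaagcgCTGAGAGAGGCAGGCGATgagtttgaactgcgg
Bcl2: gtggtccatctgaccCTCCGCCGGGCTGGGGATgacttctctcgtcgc
Bax: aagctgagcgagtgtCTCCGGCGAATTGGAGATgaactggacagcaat
Bak1: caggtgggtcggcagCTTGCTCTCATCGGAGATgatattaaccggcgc
Bid: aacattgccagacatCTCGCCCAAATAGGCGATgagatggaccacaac
Bad: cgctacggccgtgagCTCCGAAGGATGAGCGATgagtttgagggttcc
Bcl2l11: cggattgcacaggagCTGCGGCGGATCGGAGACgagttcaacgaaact
Bbc3: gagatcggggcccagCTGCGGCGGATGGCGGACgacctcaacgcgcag

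The Mcl1 stretch is in exon 1 of 3 (chr3:95659421-95659468, plus strand), that of Bcl2l1 in exon 2 of 3 (chr2:152829691-152829738, minus strand) and that of Bcl2 in exon 1 of 2 (chr1:106712569-106712616, minus strand). Those of the effectors are in exon 3 of 6 of Bax (chr7:45465991-45466038, minus strand) and exon 4 of 6 of Bak1 (chr17:27022525-27022572, minus strand). Those of the BH3-only members are in exon 4 of 6 of Bid (chr6:120897283-120897330, minus strand), exon 3 of 4 of Bad (chr19:6950777-6950824, plus strand), exon 3 of 4 of Bcl2l11 (chr2:128147135-128147182, plus strand) and exon 3 of 4 of Bbc3 (chr7:16313758-16313805, plus strand). The motif alone is common: 13.3% of 21565 protein-coding genes hold the form with glycine and 34.0% hold either form. Neither form was found in Bcl2l10. The first 60 coding bases of Bcl2l10, the member that dominates the levels given next, are shown with the start codon in capitals (chr9:75347903-75347962, plus strand, 2 exons).
Bcl2l10: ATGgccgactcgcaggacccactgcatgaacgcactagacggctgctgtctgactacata

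The libraries held between 871663 and 1363928 fragments on genes, and 3 fragments were taken as the limit of detection. Levels are FPKM (fragments per kilobase of gene, scaled to the depth of the library), which allows genes of different length to be compared within a library. They are shares of each library, and in pooled embryos fewer cells and less RNA per cell cannot be told apart. Pias4, the gene for PIASy, measured 2.98 and 3.59 FPKM in non-injected embryos, 862 and 611 with PIASy-Mut and 610 and 579 with PIASy-WT, in accordance with the labels. All 5 markers of 2-cell embryos and all 5 of oocytes were detected in every library. The 6 cumulus and granulosa markers summed to 1.88 and 3.05 FPKM in non-injected embryos, 3.28 and 7.19 with PIASy-Mut and 6.66 and 5.66 with PIASy-WT. Most of this was Tnfaip6, with 4 to 11 fragments per library, while Amh was at 0 in all libraries. The blood markers summed to 2.83 to 19.1 FPKM. This was almost wholly Hba-a1, with 2 to 16 fragments per library, while Hbb-bs had 0 in all libraries and Ptprc 1 in total. The PIASy-Mut libraries differed from each other in several members, as the values show.

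The anti-apoptotic side was almost wholly Bcl2l10 (ENSMUSG00000032191.5, chr9:75347758-75351632, plus strand). Its level was 1090 and 873 FPKM in non-injected embryos, 287 and 849 with PIASy-Mut and 1558 and 1438 with PIASy-WT. Both PIASy-WT libraries were above all 4 others, and replicate 1 of PIASy-Mut was the lowest. Ranked by FPKM among all genes, Bcl2l10 stood at 41 and 44 in non-injected embryos, 204 and 43 with PIASy-Mut and 24 and 29 with PIASy-WT. It made up 77.8% of the summed FPKM of the 10 genes in replicate 1 of PIASy-Mut and 93.5% to 97.9% in the other libraries.

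Mcl1 (ENSMUSG00000038612.16, chr3:95658788-95663176, plus strand) was next in mean level. It measured 31.3 and 33.9 FPKM in non-injected embryos, 48.2 and 17.5 with PIASy-Mut and 11.5 and 10.7 with PIASy-WT. Both PIASy-WT libraries were below all 4 others, while the PIASy-Mut libraries lay on either side of non-injection. Bcl2l10 exceeded Mcl1 by 34.8 and 25.8 times in non-injected embryos, by 5.97 and 48.7 times with PIASy-Mut and by 136 and 135 times with PIASy-WT.

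Bcl2l1 (ENSMUSG00000007659.18, chr2:152780668-152831728, minus strand), which encodes BCL-XL, measured 4.48 and 6.56 FPKM in non-injected embryos, 4.44 and 11.3 with PIASy-Mut and 9.87 and 15.0 with PIASy-WT. The PIASy-WT libraries were above both non-injection libraries, and replicate 2 of PIASy-Mut lay between them. The level of Bcl2l1 per that of Mcl1 was 0.143 and 0.193 in non-injected embryos, 0.0921 and 0.645 with PIASy-Mut and 0.860 and 1.40 with PIASy-WT. Bcl2 (ENSMUSG00000057329.7, chr1:106538178-106714274, minus strand), the founding member of the family, had no fragment in 4 libraries, of non-injection and PIASy-Mut, and 1 and 2 fragments with PIASy-WT, which is below the limit of detection in every library.

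**Figure D1:**
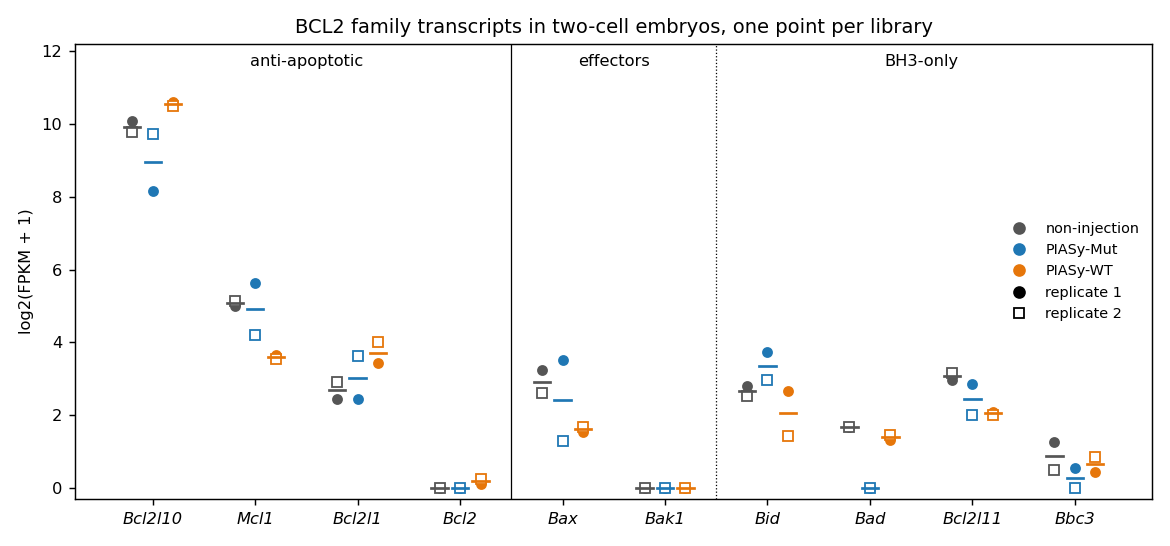
Level of each BCL2 family gene as log2(FPKM + 1) (vertical axis) for the 10 genes (horizontal axis, in 3 roles), with 1 point per library, coloured by group, and a bar at the mean of the 2 libraries. Bcl2l10 lies far above the other 9 genes in every library, Mcl1 is lowest in both PIASy-WT libraries, and Bcl2 and Bak1 lie at or near 0.

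The 6 pro-apoptotic members were low or not detected. Among the effectors, Bax (ENSMUSG00000003873.11, chr7:45461697-45466898, minus strand) measured 8.37 and 5.05 FPKM in non-injected embryos, 10.5 and 1.46 with PIASy-Mut and 1.91 and 2.21 with PIASy-WT. Both PIASy-WT libraries were below both non-injection libraries, and replicate 2 of PIASy-Mut was the lowest of all. The PIASy-WT values rest on 4 fragments each and that lowest value on 2. Bak1 (ENSMUSG00000057789.13, chr17:27019810-27029009, minus strand), the other effector, had 0 fragments in all 6 libraries, which allows a level of up to 0.914 to 1.43 FPKM, depending on the library.

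Of the BH3-only members, Bid (ENSMUSG00000004446.12, chr6:120891930-120916853, minus strand), whose protein is cut by caspase 8 and links death receptors to mitochondria, had the highest mean level. It measured 5.99 and 4.73 FPKM in non-injected embryos, 12.3 and 6.79 with PIASy-Mut and 5.31 and 1.72 with PIASy-WT. Both PIASy-Mut libraries were above the other 4, and PIASy-WT overlapped non-injection. Bid overlaps Bcl2l13 on the opposite strand, which had 286 fragments over the 6 libraries. Whether counting used the strand is not given in the sources used here, so the level of Bid is uncertain.

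Bcl2l11 (ENSMUSG00000027381.16, chr2:128126038-128162547, plus strand), whose protein BIM binds all of the anti-apoptotic members, measured 6.85 and 7.93 FPKM in non-injected embryos, 6.27 and 3.00 with PIASy-Mut and 3.29 and 3.03 with PIASy-WT. The PIASy-WT libraries were below both non-injection libraries, and PIASy-Mut spanned from the lowest value of all to near the non-injection values.

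Bad (ENSMUSG00000024959.13, chr19:6941861-6951898, plus strand), whose protein binds BCL2 and BCL-XL, measured 2.19 and 2.20 FPKM in non-injection and 1.50 and 1.73 in PIASy-WT. These were 6 and 5 fragments in non-injected embryos and 4 and 4 with PIASy-WT, and both PIASy-Mut libraries had 0. Set against the FPKM of 3 fragments per library, the mean level in PIASy-Mut lay below that of non-injected embryos by at least 1.39-fold and below that of PIASy-WT by at least 1.02-fold. Bad overlaps Gpr137 on the opposite strand, which had 12 fragments in all. Bbc3 (ENSMUSG00000002083.13, chr7:16308393-16318205, plus strand), the p53 target that encodes PUMA, had between 0 and 4 fragments per library, or 0 to 1.38 FPKM, and its groups overlapped.

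The balance of both sides was taken as the summed FPKM of the 4 anti-apoptotic genes over that of the 6 pro-apoptotic genes. The ratio was 45.4 and 44.9 in non-injected embryos, 11.5 and 78.1 with PIASy-Mut and 128 and 154 with PIASy-WT. The PIASy-WT libraries were above all others, and the PIASy-Mut libraries lay far apart on either side of non-injection. On the log2 scale the means were 5.50 ± 0.01 for non-injection, 4.91 ± 1.95 for PIASy-Mut and 7.13 ± 0.19 for PIASy-WT (SD, n = 2). The difference of PIASy-WT was 1.63 from non-injection and 2.22 from PIASy-Mut, and that of PIASy-Mut from non-injection was -0.59.

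Both sides contributed to these differences. Against non-injected embryos the log2 of the anti-apoptotic sum differed by 0.58 in PIASy-WT and that of the pro-apoptotic sum by -1.05. Against PIASy-Mut the same differences were 1.48 and -0.75. The size of the shift depended on which genes and which measure were used. Without Bcl2l10, the ratio was 1.44 and 1.99 in non-injected embryos, 1.79 and 2.55 with PIASy-Mut and 1.73 and 2.72 with PIASy-WT, and the groups overlapped. On the log2 scale the 2 differences of PIASy-WT were then 0.36 from non-injection and 0.02 from PIASy-Mut. With Bcl2l10 left out, each side summed to less in the PIASy-WT libraries than in the non-injected embryos. The summed level of Mcl1, Bcl2l1 and Bcl2 was 35.8 and 40.4 FPKM in non-injected embryos, 52.6 and 28.7 with PIASy-Mut and 21.4 and 25.9 with PIASy-WT. The pro-apoptotic sum was 24.8 and 20.3 FPKM in non-injected embryos, 29.5 and 11.2 with PIASy-Mut and 12.4 and 9.51 with PIASy-WT.

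Bik (ENSMUSG00000016758.3, chr15:83526862-83544635, plus strand), a BH3-only gene of the wider family that is not among the 10, was higher in mean level than any of the 6 pro-apoptotic members. It measured 24.1 and 15.9 FPKM in non-injected embryos, 12.3 and 24.3 with PIASy-Mut and 63.2 and 26.8 with PIASy-WT, highest in both PIASy-WT libraries. Its log2 difference from non-injection was 1.03, with an adjusted P of 0.251 in limma. Pmaip1, another BH3-only gene outside the 10, was also above the 6 in mean level and went the other way. Its level was 11.1 and 14.4 FPKM in non-injected embryos, 11.4 and 4.77 with PIASy-Mut and 4.85 and 5.59 with PIASy-WT. With Bik counted on the pro-apoptotic side, a choice made after seeing the data, that side summed to 48.9 and 36.3 FPKM in non-injected embryos, 41.8 and 35.6 with PIASy-Mut and 75.6 and 36.3 with PIASy-WT. The ratio was then 23.0 and 25.2 in non-injected embryos, 8.14 and 24.7 with PIASy-Mut and 20.9 and 40.4 with PIASy-WT, so PIASy-WT overlapped both other groups. The log2 difference of PIASy-WT from non-injection fell from 1.63 to 0.27, and it was 0.66 when each side was the mean of log2(FPKM + 1) over its members, without Bik, in place of a sum. By that mean, replicate 2 of PIASy-Mut lay above both PIASy-WT libraries. No test was made on the balance, since a score over chosen genes gives no independent p-value. With 2 libraries against 2, an exact two-sided permutation test cannot go below 0.333.

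**Figure D2:**
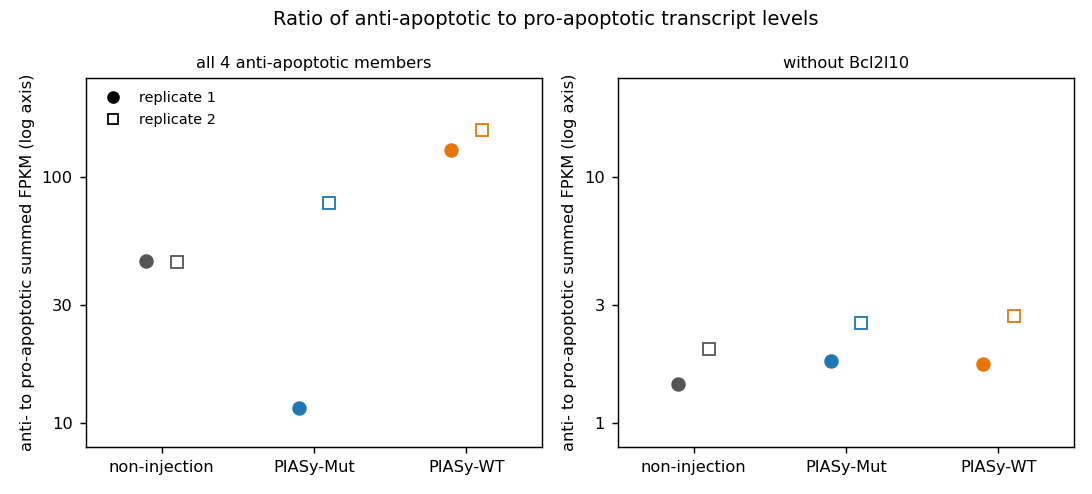
Ratio of summed anti-apoptotic to summed pro-apoptotic FPKM (vertical axes, log scale, the same span in both panels) in each library of the 3 groups (horizontal axes), with all members on the left and without Bcl2l10 on the right. On the left both PIASy-WT libraries lie highest at 128 and 154. On the right the libraries lie between 1.44 and 2.72 and the groups overlap.

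Transcripts stored in the oocyte also differed in level between libraries. The summed level of the oocyte markers Zp3, Gdf9, Bmp15, Oosp1 and Nlrp5 was 3069 and 2609 FPKM in non-injected embryos, 2951 and 4236 with PIASy-Mut and 4744 and 3995 with PIASy-WT. The sum of the 2-cell markers Zscan4c, Zscan4d, Zfp352, Tcstv3 and Usp17la was 939 and 973 FPKM in non-injected embryos, 1071 and 1080 with PIASy-Mut and 630 and 439 with PIASy-WT. Relative to non-injected embryos, 3 of these 5 genes had a lower mean log2 level in PIASy-WT and 2 a higher one, from -1.14 for Tcstv3 and -0.88 for Zfp352 to 0.44 for Zscan4c and 0.58 for Usp17la, and 0 were called. Against PIASy-Mut 4 were lower and 1 higher, and 1, Tcstv3, was called lower (log2 difference -1.39, limma adjusted P of 0.0499). Bmp15, an oocyte growth factor, measured 482 and 461 FPKM in non-injected embryos, 328 and 745 with PIASy-Mut and 1283 and 1478 with PIASy-WT. It was the only one of the 5 oocyte genes that was, like Bcl2l10, highest in both PIASy-WT libraries and lowest in replicate 1 of PIASy-Mut. Of the 5 oocyte genes 4 had a higher mean log2 level in PIASy-WT than in non-injection, among them Gdf9 (log2 difference 1.29) and Bmp15 (1.55), and 0 were called higher, with adjusted P values of 0.0708 and 0.0737 for this pair in limma. Against PIASy-Mut 2 of the 5 were higher and 3 lower, with a median log2 difference of -0.04. The gene that was lower in both, Zp3 of the egg coat, was called lower than in either other group (adjusted P of 0.0292 and 0.0240). The part of stored RNA in the level of Bcl2l10 was not tested.

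The groups were compared gene by gene with limma on log2(FPKM + 1), over the 16100 genes that reached 1 FPKM in 2 or more libraries. A gene was called where its adjusted P did not exceed 0.05. Of the 10 members 7 reached this level, and Bcl2, Bak1 and Bbc3 did not. Bad did so through non-injection and PIASy-WT alone, so its place in counts against PIASy-Mut is not evidence about the members. Nothing in the labels says whether the 2 libraries of a group came from separate fertilisations, so the p-values measure the spread between these libraries.

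Between PIASy-WT and non-injection, 0 of the 7 members were called in either direction, where 1.03% of all genes tested were called higher and 5.76% lower. At an unadjusted P under 0.05 there were 2 of 7, Mcl1 and Bcl2l11, where 28.2% of all genes were below it. Mcl1 had a log2 difference of -1.48 ± 0.47 (SE, 95% interval -2.62 to -0.33) at an adjusted P of 0.108. It was called at an adjusted P of 0.0261 in a limma fit of these 4 libraries only and of 0.0315 with voom on fragments. Those fits called more of the whole table, 730 and 822 genes higher and 1563 and 1895 lower, against 166 and 928 in the main fit. Leaving out a PIASy-Mut library cannot change the log2 difference of Mcl1 in this comparison. Bcl2l11 had a log2 difference of -1.01 ± 0.41 (SE, 95% interval -2.00 to -0.02) at an adjusted P of 0.171 in limma.

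Bcl2l10, highest in PIASy-WT, had a log2 difference of 0.62 from non-injection (95% interval -0.62 to 1.86) at an adjusted P of 0.467 in limma. For Bcl2l1 the log2 difference was 1.04 (95% interval -0.15 to 2.22), with an adjusted P of 0.224. For Bax it was -1.30 (95% interval -3.10 to 0.50), with an adjusted P of 0.301. Bid and Bad had log2 differences of -0.61 and -0.29, with adjusted P values of 0.480 and 0.636. These intervals are wide, and for Bcl2l10 and Bcl2l1 they take in both no difference and a rise beyond 1 log2 unit.

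Between PIASy-WT and PIASy-Mut, which differ in the ligase activity of the injected protein, 0 of the 7 members were called, where 0.82% of all genes were called higher and 6.01% lower. At an unadjusted P under 0.05 there were 4 of 7, Bcl2l10, Mcl1, Bid and Bad, where 27.7% of all genes were below it. Bcl2l10 had a log2 difference of 1.60 ± 0.51 (SE, 95% interval 0.36 to 2.84) at an adjusted P of 0.109 in limma. It depended on the PIASy-Mut library used: it was 2.38 without replicate 2, with an adjusted P of 0.0121, and 0.82 without replicate 1. In such fits the lone PIASy-Mut library is assumed to vary like the other groups, and without replicate 1 no gene of the table was called in this comparison, while without replicate 2 there were 1019 called higher and 2032 lower. With voom it was called at an adjusted P of 0.00714. Mcl1 had a log2 difference of -1.32 ± 0.47 (SE) at an adjusted P of 0.136, which became -2.03 with an adjusted P of 0.0143 without replicate 2 of PIASy-Mut and -0.61 without replicate 1.

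Bid had a log2 difference of -1.30 (95% interval -2.56 to -0.03) between PIASy-WT and PIASy-Mut, with an adjusted P of 0.174 in limma. Bad, with no fragment in PIASy-Mut, had a fitted value of 1.39 at an adjusted P of 0.0771. That fitted value depends on the pseudocount, and with 0.1 in place of 1 Bad was called at an adjusted P of 0.0452. Bcl2l1, Bax and Bcl2l11 had log2 differences of 0.69, -0.79 and -0.38 and adjusted P values of 0.408, 0.522 and 0.580. Bax turned from -0.79 to 0.32 without replicate 1 of PIASy-Mut and to -1.90, with an adjusted P of 0.0422, without replicate 2.

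Between PIASy-Mut and non-injection, 0 of the 7 members were called, where 0.00621% of all genes were called higher and 0.0% lower. At an unadjusted P under 0.05 there was 1 of 7, Bad, where 4.46% of all genes were below it. Its adjusted P was 0.596 in limma. Since Bad had 0 fragments in PIASy-Mut and passed the filter through the other groups, that count is not evidence about the members. The log2 differences of the others ran from -0.98 for Bcl2l10 to 0.68 for Bid. The 3 comparisons share libraries in pairs and are not independent of one another.

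**Figure D3:**
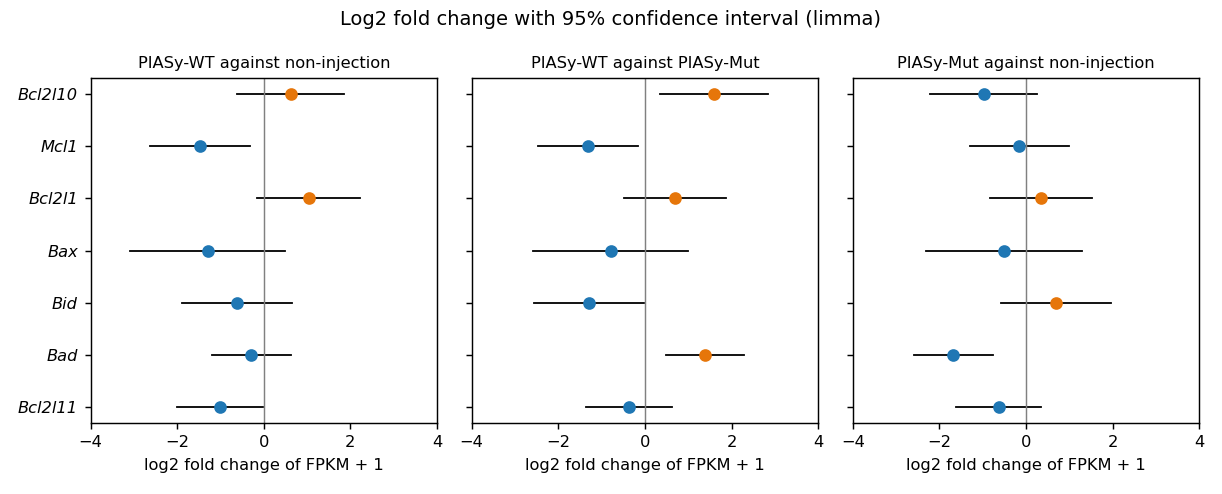
Log2 fold change of FPKM + 1 (horizontal axes) for the 7 members tested (vertical axis), with the 95% confidence interval from limma as a line, in the 3 comparisons. Mcl1 and Bcl2l11 lie below 0 with their whole interval in PIASy-WT against non-injection, and no member had an adjusted P of at most 0.05 in any panel.

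Counted over libraries, 1 of the 7 members tested, Bcl2l10, was above all 4 other libraries in both PIASy-WT libraries, where 19.9% of all genes tested were, and 1 of 7, Mcl1, was below all 4 others, where 24.4% were. These shares of members were near those of all genes.

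The rest of the pathway was followed in 7 lists of 58 genes by known role, of which 43 passed the filter. In PIASy-WT against non-injection 1 of the 43 was called lower, where 5.76% of all genes were, and 0 higher. Against PIASy-Mut 3 were called lower, where 6.01% of all genes were, and 0 higher, and between PIASy-Mut and non-injection 0 were called in either direction. At an unadjusted P under 0.05 there were 12, 9 and 0 of the 43 in these comparisons, where 28.2%, 27.7% and 4.46% of all genes were. Of the called genes, Endog and Bcl2l14 had 0 to 2 fragments per PIASy-WT library and passed the filter only through the groups in which they are high, so these counts are not evidence about the lists. The median log2 difference of all genes tested was 0.01, -0.03 and 0.04.

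Of the other BCL2 family members 8 of 15 passed the filter, with a median log2 difference of -0.57 from non-injection and -0.63 from PIASy-Mut in PIASy-WT. Bcl2l14 (ENSMUSG00000030200.13, chr6:134396318-134438736, plus strand), a distant family member, measured 5.91 and 5.62 FPKM in non-injected embryos, 10.2 and 3.36 with PIASy-Mut and 0.369 and 0.213 with PIASy-WT. Its PIASy-WT values rest on 2 and 1 fragments and lay below all other libraries. It was called lower against PIASy-Mut, with an adjusted P of 0.0490 in limma, and had an adjusted P of 0.0510 against non-injection, where it was called in 6 of 16 alternatives. In both comparisons the 16 include fits that called almost no gene of the whole table, which say nothing about stability. The call against PIASy-Mut was made in 5 of 16 alternatives. It was lost in limma, among others, with the replicate number as a block (adjusted P of 0.0544), quantile normalization (0.0579), median-ratio size factors (0.0612) and a pseudocount of 5 (0.0863). Summed over libraries and divided by depth, its fragments were 19.5 times fewer than in non-injection (exact 95% interval 6.36 to 97.3, for counting error only) and 23.8 times fewer than in PIASy-Mut (7.74 to 119). Bnip3, a mitophagy receptor with a BH3-like stretch and the highest of the list, measured 52.8 and 59.0 FPKM in non-injected embryos, 146 and 47.6 with PIASy-Mut and 61.3 and 32.6 with PIASy-WT, and its groups overlapped.

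Of the mitochondrial genes of the outer membrane and of factors released from the intermembrane space all 5 passed the filter, with a median log2 difference of -0.04 from non-injection and -0.21 from PIASy-Mut. Endog (ENSMUSG00000015337.5, chr2:30171493-30174069, plus strand), the mitochondrial nuclease endonuclease G, had 4 and 6 fragments in non-injected embryos, 6 and 7 with PIASy-Mut and 0 in both PIASy-WT libraries. It was called lower against both, with adjusted P values of 0.0391 and 0.0269 in limma and a call in 9 of 16 alternatives in each. Set against the FPKM of 3 fragments per library, its mean level in PIASy-WT lay below that of non-injected embryos by at least 1.69-fold and below that of PIASy-Mut by at least 2.84-fold.

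Aifm1 (ENSMUSG00000036932.14, chrX:48474944-48513563, minus strand), the apoptosis-inducing factor, which in living cells serves the respiratory chain, measured 12.6 and 17.9 FPKM in non-injected embryos, 26.6 and 17.5 with PIASy-Mut and 4.71 and 4.56 with PIASy-WT. Both PIASy-WT libraries were below all others. It fell by 2.00 on the log2 scale against PIASy-Mut, with an adjusted P of 0.0321 in limma and a call in 9 of 16 alternatives. For Aifm1 and Endog too, the 16 include fits that called almost no gene of the whole table. The log2 difference of Aifm1 from non-injection was -1.51 at an adjusted P of 0.0544 in limma. Vdac1, the main outer membrane channel and the highest of the list, measured 45.9 and 52.3 FPKM in non-injected embryos, 56.9 and 53.4 with PIASy-Mut and 54.7 and 41.2 with PIASy-WT. The other 2 channels of the list, named after their values were seen, had higher means with PIASy-WT. Vdac2 measured 23.5 and 17.2 FPKM in non-injected embryos, 20.9 and 47.9 with PIASy-Mut and 50.9 and 41.4 with PIASy-WT. Vdac3 measured 25.4 and 27.7 FPKM in non-injected embryos, 25.2 and 40.2 with PIASy-Mut and 47.9 and 49.8 with PIASy-WT. Their log2 differences from non-injection were 1.15 and 0.85, with adjusted P values of 0.147 and 0.128 in limma. Both were called higher on leaving out either 1 of the PIASy-Mut libraries, Vdac2 also with voom and Vdac3 also in a fit of only the groups compared.

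No gene of the other 5 lists was called in any comparison. In PIASy-WT against non-injection the median log2 difference was -0.26 over 5 of 9 apoptosome and caspase genes, 0.35 over all 7 IAP proteins and their inhibitors, 0.46 over 6 of 8 death receptor pathway genes, -0.21 over 8 of 10 genes of p53 and its targets and -0.10 over all 4 genes of MCL1 protein turnover. Against PIASy-Mut the medians were -0.26, 0.54, 0.43, 0.08 and -0.15 in the same order. The genes with the highest level in these lists were present in all libraries. Cycs, which encodes cytochrome c, lay between 9.97 and 19.2 FPKM. Birc5, which encodes survivin, a mitotic protein and caspase inhibitor, measured 231 and 243 FPKM in non-injected embryos, 221 and 235 with PIASy-Mut and 311 and 353 with PIASy-WT, with a log2 difference of 0.48 from non-injection and an adjusted P of 0.215 in limma. Ripk1, a kinase of death receptor complexes, lay between 2.79 and 7.30 FPKM, and Mdm4, an inhibitor of p53, between 438 and 588. Usp9x, which removes ubiquitin from MCL1, measured 23.0 and 24.5 FPKM in non-injected embryos, 19.4 and 21.5 with PIASy-Mut and 30.4 and 29.7 with PIASy-WT, with a log2 difference of 0.33 from non-injection and an adjusted P of 0.417.

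**Figure D4:**
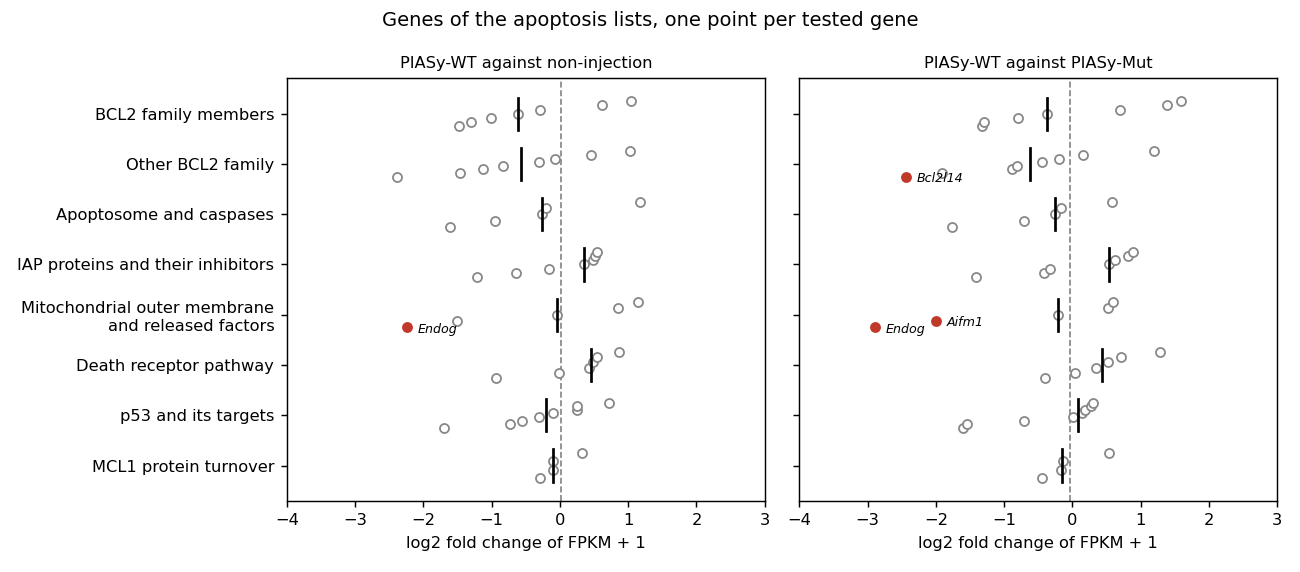
Log2 fold change of FPKM + 1 (horizontal axes) of each tested gene of the 10 members and the 7 other lists (vertical axis) in both comparisons of PIASy-WT, with a bar at each list's median and a dashed line at the median of all genes tested. Filled red points are the genes with an adjusted P of at most 0.05, which are Endog on the left and Bcl2l14, Endog and Aifm1 on the right.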

How the data were processed

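RNA-seq libraries of 6 pools of 5 embryos were analysed. The authors made cDNA with a SMART-Seq v4 kit (11 PCR cycles) and libraries with Nextera XT (13 cycles), trimmed reads with Trim Galore, aligned them to mm10 with STAR and counted them with featureCounts. The deposited table holds FPKM values made by the authors for 53023 genes. The annotation release and strand setting are not given in the sources used here. Spike-in RNA was added at lysis and the table has 0 such entries, so levels are shares of a library.

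FPKM multiplied by gene length gave whole fragments for 100% of values (tolerance 0.01), from which the depth of each library was taken. Counting error alone sets the limit of 3 fragments. Groups came from the sample labels. Differences were tested with limma 3.58.1 in R 4.3.3 (lmFit and eBayes with a trend, Benjamini-Hochberg adjusted) on log2(FPKM + 1) of all 6 libraries, a scale that understates changes of low genes. The fit was tested on simulated data. Alternatives changed the pseudocount, filter, scaling, libraries in the fit, block, call rule and test. The study tested counts with DESeq2, which was not run here. The recovered fragments were tested with voom.

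The members and lists were chosen with earlier results of these data known. All members were named, and of each other list the gene with the highest mean FPKM and up to 4 called genes. For the anti-apoptotic and the pro-apoptotic member with the highest mean level, the 3 genes with the most similar pattern were named among those with a mean of at least 10 FPKM. Coding sequences came from GENCODE M21, in which 50248 of the 53023 gene identifiers were found. A protein table and a Bcl2l10 promoter were not used here.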

Additional observations from a re-analysis of the deposited data

How the results depend on the processing

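The tests were recomputed under 16 alternatives and the balance under 12, of which 2 were added after seeing the data. Of the log2 differences, 16 of 21 of members kept their direction in all that could be run (15 for Bad, which fails a filter of 5 FPKM). The others turned when 1 PIASy-Mut library was left out. Some alternatives cannot change a log2 difference, so agreement under them was fixed in advance. They are a limit on its size, only the groups compared, the block and leaving out a library of the group not compared. On leaving out 1 library, PIASy-Mut minus non-injection ran from -0.86 to 0.55 for Mcl1, -0.24 to 0.93 for Bcl2l1, -1.62 to 0.60 for Bax and -0.63 to 0.72 for Bcl2l14, and PIASy-WT minus PIASy-Mut from -1.90 to 0.32 for Bax and -0.81 to 0.056 for Bcl2l11. Bcl2l14 in PIASy-Mut against non-injection also turned, to -0.046, under quantile normalization. The number of members called was 0 in each comparison. It became 1 in PIASy-WT against non-injection with only the groups compared or with voom (Mcl1 in both). Over all genes these fits called 730 and 822 higher and 1563 and 1895 lower, against 166 and 928 in the main fit. Against PIASy-Mut the number of members became 1 with a pseudocount of 0.1 (Bad) or voom (Bcl2l10). Over all genes these fits called 94 and 543 higher and 840 and 1875 lower, against 132 and 968 in the main fit. Leaving out a non-injection or PIASy-WT library left 0 to 1 genes called in the whole table in PIASy-WT against non-injection, and against PIASy-Mut 0 genes of the table were called with only the groups compared or on leaving out any library but replicate 2 of PIASy-Mut, so those fits say nothing about stability.

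The other apoptosis genes called in PIASy-WT against non-injection (1 in the report) numbered 2 with a pseudocount of 0.1, 0 with 5, 0 without a filter, 2 with a filter of 5 FPKM, 5 with only the groups compared and 7 with voom. In that order, all genes called higher were 107, 154, 16, 332, 730 and 822, and lower 773, 709, 154, 1441, 1563 and 1895. These are of 16100 genes, but 27826 without a filter and 8282 with a filter of 5 FPKM. Against PIASy-Mut (3 in the report) the other apoptosis genes called numbered 0 without a filter, 0 with only the groups compared and 8 with voom. All genes called higher and lower were 11 and 243 of 27826 without a filter and 543 and 1875 of 16100 with voom. With only the groups compared, 0 genes of the table were called. The log2 balance difference of 1.63 from non-injection became 0.66 as a difference of mean log2 levels, 0.36 without Bcl2l10, 0.27 with Bik and 0.50 with the wider family (Bik, Bmf, Hrk, Pmaip1, Bok, Bcl2l2 and 3 Bcl2a1 genes). That of 2.22 from PIASy-Mut became 0.40, 0.023, 1.04 and 1.16 under the same settings, and 0.84 to 3.60 on leaving out 1 library. PIASy-Mut minus non-injection turned from -0.59 to 0.26 as a difference of mean log2 levels and 0.33 without Bcl2l10, and ran from -1.97 to 0.79 on leaving out 1 library. The cause of these changes was not tested.

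With the replicate block, 0 members were called in each comparison, and the other apoptosis genes called against PIASy-Mut went from 3 to 2, without Bcl2l14. Whether same-numbered libraries share a batch is not given in the labels. Their correlations of deviations from the group means were 0.085, 0.064 and 0.0037, which with 2 libraries a group cannot settle it. With the block, genes called lower in PIASy-WT against non-injection went from 928 to 719 and higher from 166 to 89. Quantile normalization moved the median of all genes from 0.01 to 0.12. Depth limits Bcl2, Bak1, Bax, Bad, Bbc3 and Endog.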

Other observations

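Among 4719 tested genes with a mean of at least 10 FPKM, the genes whose log2 levels followed Bcl2l10 most closely over the 6 libraries were Mgst3 (Pearson r = 0.996), a glutathione transferase of membranes, Coq10b (r = 0.995), a mitochondrial coenzyme Q binding protein, and Tcl1b1 (r = 0.993), of a gene family with high levels in oocytes. Mgst3 measured 132 and 126 FPKM in non-injected embryos, 39.7 and 113 with PIASy-Mut and 193 and 186 with PIASy-WT, and Tcl1b1 measured 2512 and 2184, 796 and 2301, and 3430 and 3035 FPKM in the same order. Like Bcl2l10, both were lowest in replicate 1 of PIASy-Mut and highest in PIASy-WT. A correlation over 0.9 was found for 247 of the 4719 genes, and the points share their libraries.

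For Bid the closest genes of 4720 were Gm44172, a long intergenic RNA (r = 0.995), Arhgap11a (r = 0.994) and A530040E14Rik, an antisense RNA (r = 0.994). Arhgap11a measured 17.7 and 15.1 FPKM in non-injected embryos, 22.3 and 17.6 with PIASy-Mut and 16.3 and 11.1 with PIASy-WT. A correlation over 0.9 was found for 96 genes.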
